A study of Mus musculus with 12 samples.

Results

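Matrix metalloproteinases and their tissue inhibitors were followed in mouse bone marrow progenitors carrying mutant CSF3R, mutant CEBPA, both or neither. The 9 genes are Mmp8, Mmp9, Mmp12, Mmp14, Mmp19, Mmp25, Timp1, Timp2 and Timp3, out of 51912 genes counted. They were chosen by name, and in part because Mmp8 and Mmp12 stood higher with mutant CEBPA in these same libraries. Values of the 9 genes in contrasts of mutant CEBPA with its absence are therefore given as a description, without a test. All 9 were found in the table, and 8 of them were among the 16360 genes abundant enough to be tested. Timp1 did not pass the expression filter.

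The libraries number 12 in 4 groups of 3 lettered A, B and C, which the series design calls biological replicates. Lineage-negative marrow cells of C57BL/6 mice were transduced with retroviruses for CEBPA V314VW together with CSF3R T618I, for CSF3R T618I, for CEBPA V314VW, or with empty vector. CSF3R binds granulocyte colony-stimulating factor, and the T618I change activates the receptor without ligand. CEBPA is a transcription factor that granulocyte formation depends on, and V314VW lies in its C-terminal, DNA-binding part. Every group, empty vector included, was grown in DMEM with 10% FBS, SCF, IL-6, IL-3 and medium conditioned by WEHI cells, and was sorted for GFP and RFP and for lack of mature lineage antigens. The viruses drive the mutants above the cell's own Csf3r and Cebpa, and the sorted cells are a mixture of progenitors rather than a clone. Donor mice were healthy and 6 to 12 weeks old. Whether libraries of the same letter came from the same mouse or culture is not stated.

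Matrix metalloproteinases are zinc-dependent enzymes made as inactive precursors. Once the propeptide is removed they cut collagens, gelatin, elastin, proteoglycans and a range of cytokines and receptors outside the cell. TIMPs are small secreted proteins that occupy the active site of these enzymes. In marrow and blood, neutrophil precursors load Mmp8 into specific granules and Mmp9 into gelatinase granules. Macrophages are known for Mmp12. The counts describe RNA only, so neither stored protein nor enzyme activity was measured.

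Mmp8 and Mmp12 lie on mouse chromosome 9 with 189 kb between them, inside a cluster of metalloproteinase genes. Mmp8 (ENSMUSG00000005800) spans chr9:7558456-7568485 and Mmp12 (ENSMUSG00000049723) chr9:7344381-7369499, both on the plus strand in GENCODE M21 on mm10. Their promoters are printed because these genes of the 9 differed most between cells with and without mutant CEBPA. Each window runs from 250 bases before to 50 bases after a RefSeq start site on GRCm38.p6, plus strand. Mmp8 has the window chr9:7558179-7558478, and Mmp12 has the windows chr9:7344147-7344446 and chr9:7347124-7347423. Capitals mark a match to the CEBP-type letters TTGCNNAA (TTNNGCAA on the other strand) in Mmp8 and in the upstream window of Mmp12, and a match to the AP-1 letters TGANTCA in the downstream window of Mmp12.
Mmp8: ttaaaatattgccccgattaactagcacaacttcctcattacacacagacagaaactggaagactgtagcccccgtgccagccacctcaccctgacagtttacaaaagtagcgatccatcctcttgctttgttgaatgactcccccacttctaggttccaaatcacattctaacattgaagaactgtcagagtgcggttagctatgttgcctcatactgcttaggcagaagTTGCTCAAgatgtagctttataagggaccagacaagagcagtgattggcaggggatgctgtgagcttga
Mmp12, upstream window: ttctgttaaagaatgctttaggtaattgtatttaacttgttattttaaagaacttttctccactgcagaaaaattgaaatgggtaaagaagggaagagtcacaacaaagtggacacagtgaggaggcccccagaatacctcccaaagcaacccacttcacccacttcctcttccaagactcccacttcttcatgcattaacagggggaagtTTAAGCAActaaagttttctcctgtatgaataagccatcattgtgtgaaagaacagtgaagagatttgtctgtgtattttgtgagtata
Mmp12, downstream window: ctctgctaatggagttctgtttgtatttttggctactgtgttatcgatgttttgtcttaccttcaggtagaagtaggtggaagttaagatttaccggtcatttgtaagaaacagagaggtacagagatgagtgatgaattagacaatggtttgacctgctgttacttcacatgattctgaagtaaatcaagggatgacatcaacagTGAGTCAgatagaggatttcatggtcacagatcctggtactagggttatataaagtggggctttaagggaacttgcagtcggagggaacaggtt

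The match in Mmp8 began 19 bases before the start site. In Mmp12 the CEBP-type match began 39 bases before the upstream start site, and the AP-1 match began 44 bases before the downstream one. Read on both strands, the CEBP-type letters occurred in 10.8% of 32851 promoter windows of the same length, the AP-1 letters in 7.81%, and the STAT letters TTCNNNGAA in 8.3%. Windows were at hand for 7 of the 9 genes, Mmp9 and Mmp19 being the exceptions. Apart from the marked matches, none of the 3 patterns occurred in these 8 windows. A match of letters is not a bound site, and binding was not measured in these libraries.

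Library totals ran between 44210071 and 67431235 counts, with 21368 to 23262 genes detected. All 5 progenitor markers, Kit among them, exceeded 1 CPM (CPM being counts relative to the TMM-scaled library size) in every group. The 7 neutrophil markers, which include Mpo and Elane of an earlier stage, summed to 3530 to 4010 CPM with both mutants and 8070 to 11900 CPM with CSF3R T618I. They summed to 4130 to 5460 CPM with CEBPA V314VW and 6730 to 11700 CPM with empty vector. S100a8 had 1830 to 4610 CPM with CSF3R T618I and 452 to 508 CPM with both mutants. It had 41.4 to 77.2 CPM with CEBPA V314VW and 216 to 441 CPM with empty vector. Ly6g had 0.122 to 0.612 CPM with empty vector. The sums therefore do not measure mature neutrophils alone, and cells with mature lineage antigens had been sorted out. The 9 stromal markers summed to 11.2 to 13.2 CPM with both mutants, 4.71 to 8.61 CPM with CSF3R T618I, 16.1 to 28.7 CPM with CEBPA V314VW and 10.5 to 13.0 CPM with empty vector, with 2 of them at 1 CPM or more in each group and Col3a1 and Dcn at 0 throughout. Differences below were tested with edgeR's quasi-likelihood F test in 1 model of all 12 libraries, with p-values adjusted over the 16360 genes. A gene is said to have risen or fallen at an adjusted p under 0.05. In bulk RNA, fewer cells of a type and less RNA per cell cannot be told apart, which holds for each gene that follows.

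**Figure D1:**
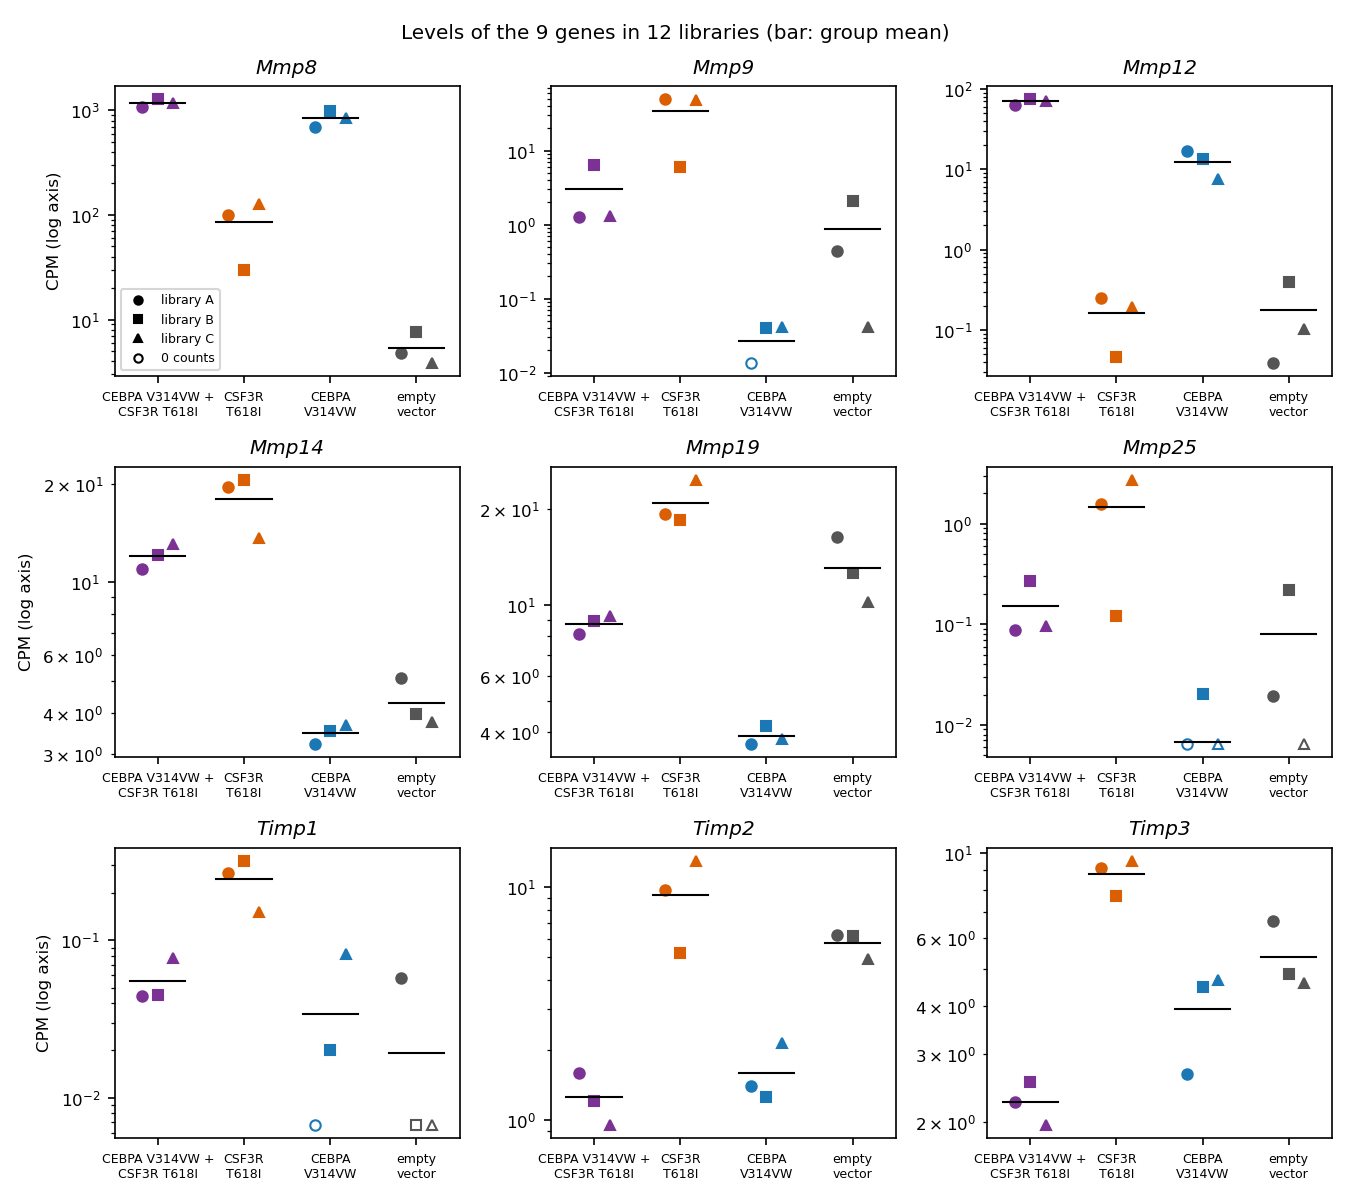
Level of each of the 9 genes in every library, as TMM-scaled CPM on a log axis of its own in each panel. Circles, squares and triangles are libraries A, B and C, bars are group means of 3 libraries, and open symbols at the lower edge are libraries with 0 counts. Mmp8 and Mmp12 were highest with both mutants, at means of 1180 and 69.9 CPM, and the other 7 genes were highest with CSF3R T618I alone.

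Mmp8 encodes neutrophil collagenase, which cuts fibrillar collagens. It had 1080, 1280 and 1180 CPM in the libraries with both mutants and 99.9, 29.6 and 128 CPM with CSF3R T618I alone. It had 688, 989 and 845 CPM with CEBPA V314VW alone and 4.81, 7.54 and 3.83 CPM with empty vector. No neighbouring groups in this order of levels overlapped. CEBPA V314VW alone gave a level 156-fold above empty vector, a log2 fold change of 7.29 ± 0.515 (SE). On top of CSF3R T618I it gave 13.8-fold, a log2 fold change of 3.78 ± 0.433. These values chose the gene and carry no test.

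CSF3R T618I also raised Mmp8 above empty vector, in a contrast that was not itself the basis of the choice. The same empty vector libraries served in the choice, so this test is not fully independent of it. Mmp8 averaged 85.9 ± 50.7 CPM with CSF3R T618I, against 5.39 ± 1.92 CPM with empty vector (SD, n = 3 each), a log2 fold change of 3.99 ± 0.447 (15.9-fold, edgeR adjusted p = 3.81e-05). Library B with CSF3R T618I, at 29.6 CPM, lay well below its companions, and it still exceeded every empty vector library. In the presence of CEBPA V314VW, Mmp8 averaged 1180 ± 96.2 CPM with CSF3R T618I added, against 841 ± 150 CPM without it. The groups did not overlap, but the difference of 0.49 ± 0.388 on the log2 scale did not pass the test (edgeR adjusted p = 0.473). It passed only when the fit was limited to the compared libraries (adjusted p = 0.0146). The effect of CSF3R T618I on Mmp8 with CEBPA V314VW present, minus its effect without, was −3.50 ± 0.574 log2 units, given as a description.

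Mmp12 encodes macrophage metalloelastase, named for its action on elastin. It had 63.6, 74.7 and 71.5 CPM with both mutants, against 0.248, 0.0456 and 0.194 CPM with CSF3R T618I alone. CEBPA V314VW alone gave 16.7, 13.3 and 7.51 CPM, against 0.0386, 0.393 and 0.102 CPM with empty vector. Groups with and without the CEBPA mutant were thus far apart, and the pair without it rested on 24 counts with CSF3R T618I and 25 counts with empty vector. The fitted differences were 8.83 ± 0.507 log2 units (454-fold) between both mutants and CSF3R T618I and 6.17 ± 0.495 (71.8-fold) between CEBPA V314VW and empty vector, given as a description because they belong to the choice of the gene.

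In the tested contrast within CEBPA V314VW cells, Mmp12 rose when CSF3R T618I was added. It averaged 69.9 ± 5.73 CPM with both mutants and 12.5 ± 4.64 CPM with CEBPA V314VW alone (SD, n = 3 each), a log2 fold change of 2.48 ± 0.332 (5.59-fold, edgeR adjusted p = 0.000167). The call was kept whichever library was left out, with values between 2.23 and 2.74. Without mutant CEBPA, the level was 0.163 ± 0.105 CPM with CSF3R T618I and 0.178 ± 0.189 CPM with empty vector, and the groups overlapped (−0.18 ± 0.808, adjusted p = 0.908). That value rests on few reads. It turned to 1.10 without empty vector library B, and was −2.43 with limma voom (adjusted p = 0.0364). Mmp12 and Mmp8 shared their highest group and the group next to it. The effect of CSF3R T618I passed for Mmp8 in cells without mutant CEBPA and for Mmp12 in cells with it. For Mmp12 the effect with CEBPA V314VW minus that without was 2.66 ± 0.902 log2 units, again not tested, and 1.39 without empty vector library B.

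Macrophage markers were read beside Mmp12. Their summed level over a list of 14 genes was 309 to 312 CPM with both mutants, 259 to 396 CPM with CSF3R T618I, 347 to 444 CPM with CEBPA V314VW and 392 to 531 CPM with empty vector. Between CEBPA V314VW and empty vector, 2 of the 11 tested markers rose and 3 fell (9.5% and 7.68% over all tested genes), with Csf1r, Adgre1 and Mrc1, a growth factor receptor and a pair of surface proteins of macrophages, among the lower ones. Ms4a7 and Fcgr1 were the markers that rose. Ms4a7 had 0, 0 and 1 counts with empty vector and passed the expression filter only through libraries with mutant CEBPA. Markers named below are examples from the 14 listed, not a count of those that moved. C1qa had 0 counts with CEBPA V314VW and with empty vector, and 1, 6 and 2 counts with both mutants. Marco had none outside the group with both mutants. Ms4a7 had 19, 24 and 5 counts with both mutants, against 8, 13 and 5 counts with CEBPA V314VW alone. Mrc1 had 1.77, 3.6 and 4.07 CPM with both mutants, against 0.781, 1.91 and 0.801 CPM with CEBPA V314VW alone. Csf1r went the other way, with 7.84, 7.34 and 8.88 CPM against 8.42, 13.4 and 12.5 CPM. The part of such cells in the Mmp12 level was not tested.

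Mmp9 encodes gelatinase B, which cuts gelatin and the type IV collagen of basement membranes. It had 49.8, 6.09 and 49.0 CPM with CSF3R T618I, against 0.444, 2.12 and 0.0408 CPM with empty vector. All CSF3R T618I libraries lay above all empty vector libraries, although both groups spread widely and their B libraries lay closest to each other. Mmp9 rose by a log2 fold change of 5.35 ± 1.02 (40.9-fold, edgeR adjusted p = 0.00234). With limma voom and sample weights the rise was 2.26 with an adjusted p of 0.0583.

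On the CEBPA V314VW background Mmp9 had 1.28, 6.38 and 1.32 CPM with both mutants, against 0, 0.0403 and 0.0411 CPM with CEBPA V314VW alone. The sums were 411 counts with both mutants and 4 counts with CEBPA V314VW alone, a ratio of 108 with an exact 95% counting interval of 41.7 to 397, which covers counting error only. The fitted rise was 6.66 ± 1.71 (adjusted p = 0.0164). It was lost when any 1 library with CEBPA V314VW alone (adjusted p 0.0596 to 0.0712) or library B with both mutants (adjusted p 0.0689) was left out, when low counts were not filtered (adjusted p 0.11), and with limma voom (adjusted p 0.211). As a description, Mmp9 was 11.7-fold lower with both mutants than with CSF3R T618I alone, with overlapping ranges, since library B with both mutants (6.38 CPM) exceeded library B with CSF3R T618I (6.09 CPM). Between CEBPA V314VW and empty vector the ratio of counts was 0.0324, with a counting interval of 0.00869 to 0.0851.

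Mmp19, a secreted enzyme with substrates in basement membrane, varied less between the groups than the enzymes above. It had 19.3, 18.5 and 24.6 CPM with CSF3R T618I, against 16.3, 12.6 and 10.2 CPM with empty vector. It had 8.10, 8.89 and 9.25 CPM with both mutants, against 3.67, 4.19 and 3.80 CPM with CEBPA V314VW alone. None of the 4 groups overlapped, in the order CSF3R T618I, empty vector, both mutants and CEBPA V314VW from high to low. CSF3R T618I raised it on either background, by 0.67 ± 0.164 log2 units (1.6-fold, adjusted p = 0.0112) without mutant CEBPA and by 1.17 ± 0.173 (2.25-fold, adjusted p = 0.000364) with it. The rise without mutant CEBPA was lost without empty vector library C (adjusted p = 0.0501) and when only the compared groups were fitted (adjusted p = 0.0855). As a description, Mmp19 was 2.38-fold lower with both mutants than with CSF3R T618I, and 3.35-fold lower with CEBPA V314VW than with empty vector. Tmem198b, on the opposite strand, overlaps its exons and had 447 to 634 counts per group. Use of strand in the counting is not stated, so reads from such overlaps cannot be separated.

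Mmp14 encodes the transmembrane enzyme MT1-MMP, which cuts collagen at the cell surface and activates the precursor of Mmp2. It had 19.6, 20.5 and 13.7 CPM with CSF3R T618I, against 5.12, 3.96 and 3.75 CPM with empty vector. With both mutants it had 11, 12.1 and 13.1 CPM, against 3.21, 3.51 and 3.67 CPM with CEBPA V314VW alone. The groups did not overlap, and Mmp14 rose by 2.07 ± 0.173 log2 units (4.19-fold, adjusted p = 3.13e-06) without mutant CEBPA and by 1.80 ± 0.174 (3.48-fold, adjusted p = 1.19e-05) with it. Both rises kept their call in every alternative run. The difference of the effects was −0.27 ± 0.24 and did not pass (adjusted p = 0.67), except with limma voom (−0.59, adjusted p = 0.0109). As a description, CEBPA V314VW went with 1.49-fold less Mmp14 beside CSF3R T618I.

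Erythroid markers moved in the same comparisons as Mmp14. Their sum over 5 genes was 349 to 608 CPM with CSF3R T618I, against 43.1 to 51.4 CPM with empty vector. All 5 rose, where 10.0% of all tested genes rose and 9.66% fell. The sum was 168 to 176 CPM with both mutants, against 29.8 to 36.5 CPM with CEBPA V314VW alone. There 4 of the 5 rose, where 7.79% of all tested genes rose and 10.1% fell. Whether these cells contributed the Mmp14 reads was not tested.

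Mmp25 encodes MT6-MMP, also called leukolysin, an enzyme tethered to the membrane by a lipid anchor and known from human neutrophils. It was scarce, with 1.55, 0.122 and 2.70 CPM with CSF3R T618I, against 0.0193, 0.219 and 0 CPM with empty vector. The ranges overlapped, because library B was the lowest of its group with CSF3R T618I and the highest with empty vector. The fitted rise of 4.19 ± 1.1 log2 units passed (adjusted p = 0.0173) on 208 counts against 11. It was lost without empty vector library A (adjusted p = 0.0759) or C (0.0573), with no filter on low counts (0.0698), with only the compared groups (0.0882) and with library letter as a block (0.0521), and its value turned to −0.04 with limma voom. On the CEBPA V314VW background the counts were 21 with both mutants and 1 with CEBPA V314VW alone, a ratio of 22.0 with a counting interval of 3.54 to 910. That difference did not pass (4.04 ± 1.87, adjusted p = 0.176), except with limma voom (3.55, adjusted p = 0.0287).

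Most neutrophil markers on the list moved with Mmp8, Mmp9 and Mmp25 when CSF3R T618I was added to cells without mutant CEBPA. Of 7 such markers 5 rose (S100a8, S100a9, Ly6g, Cxcr2 and Retnlg) and 2 fell (Mpo and Elane, products of an earlier stage), where 10.0% of all tested genes rose and 9.66% fell. Between CEBPA V314VW and empty vector none of the 7 rose and 4 fell, where 9.5% of all tested genes rose and 7.68% fell. The part of such cells in the levels of Mmp8, Mmp9 and Mmp25 was not tested.

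Timp1 encodes an inhibitor that binds the Mmp9 precursor. It was almost silent, with 13, 21 and 7 counts with CSF3R T618I, against 3, 0 and 0 counts with empty vector. The summed counts gave a ratio of 12.5 with a counting interval of 3.98 to 63.0. The groups did not overlap, and the exact two-sided permutation test gave p = 0.1, the smallest that 3 against 3 libraries allow. With both mutants it had 2, 2 and 4 counts, against 0, 1 and 4 counts with CEBPA V314VW alone, a ratio of 1.68 (0.484 to 6.51) and an exact permutation p of 0.5.

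Timp2, the inhibitor that joins Mmp14 in activating the Mmp2 precursor, was low in both groups with mutant CEBPA. It had 1.59, 1.21 and 0.95 CPM with both mutants, against 9.69, 5.19 and 12.9 CPM with CSF3R T618I alone. It had 1.40, 1.25 and 2.13 CPM with CEBPA V314VW alone, against 6.20, 6.14 and 4.92 CPM with empty vector. Every library with mutant CEBPA lay below every library without it. As a description, the differences were −2.89 ± 0.331 (7.4-fold lower) between both mutants and CSF3R T618I and −1.85 ± 0.32 (3.6-fold lower) between CEBPA V314VW and empty vector. Addition of CSF3R T618I did not pass the test on either background, with 0.68 ± 0.297 (adjusted p = 0.13) without mutant CEBPA and −0.36 ± 0.34 (adjusted p = 0.566) with it. The value without mutant CEBPA passed when CSF3R T618I library B, the lowest of its group, was left out (0.97, adjusted p = 0.0197).

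Timp3, the inhibitor held in the extracellular matrix, also blocks ADAM proteases that shed cell surface proteins. It had 9.11, 7.73 and 9.50 CPM with CSF3R T618I, against 6.66, 4.83 and 4.59 CPM with empty vector, and rose by 0.71 ± 0.213 log2 units (1.63-fold, adjusted p = 0.034). It had 2.25, 2.53 and 1.96 CPM with both mutants, against 2.66, 4.47 and 4.66 CPM with CEBPA V314VW alone, and fell by 0.81 ± 0.226 (1.75-fold, adjusted p = 0.0252). The effect of CSF3R T618I thus had opposite signs on the 2 backgrounds. The difference of the effects was −1.52 ± 0.31 (2.86-fold, adjusted p = 0.0275). All 3 calls were near the threshold and depended on single libraries. The rise was lost on leaving out empty vector library B or C, CSF3R T618I library A, CEBPA V314VW library B or C or library A with both mutants (adjusted p 0.0518 to 0.127), when libraries were scaled by their totals (0.0589) and with only the compared groups (0.0581). The fall was lost without CEBPA V314VW library B or C or without library A or C with both mutants (0.0785 to 0.116). The difference kept its sign at −1.72 to −1.35 in every leave-out, and its adjusted p exceeded 0.05 in 7 of them (0.0611 to 0.103). With library letter as a block, the 3 adjusted p-values were 0.0695, 0.0562 and 0.0848. Syn3 overlaps Timp3 on the opposite strand, with 54 to 116 counts per group, and did not pass in any of the 5 contrasts.

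Counted together, CSF3R T618I against empty vector raised 6 of the 8 tested genes (Mmp8, Mmp9, Mmp14, Mmp19, Mmp25 and Timp3) and lowered none, where 10.0% of all tested genes rose and 9.66% fell. Addition of CSF3R T618I to CEBPA V314VW raised 4 (Mmp9, Mmp12, Mmp14 and Mmp19) and lowered Timp3, where 7.79% of all tested genes rose and 10.1% fell. Each contrast shares libraries with those that chose Mmp8 and Mmp12, so the counts are not fully independent of that choice. Of the 6 genes whose difference of effects was tested, only Timp3 passed, in the falling direction. Over all genes that difference was positive in 0.501% and negative in 1.27%. Both backgrounds shared the rise of Mmp9, Mmp14 and Mmp19, and for these 3 the differences of effects were 1.30 ± 2.68, −0.27 ± 0.24 and 0.50 ± 0.237, with adjusted p of 0.857, 0.67 and 0.466. For Mmp25 and Timp2 they were −0.15 ± 2.07 (adjusted p 0.982) and −1.04 ± 0.451 (0.409).

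**Figure D2:**
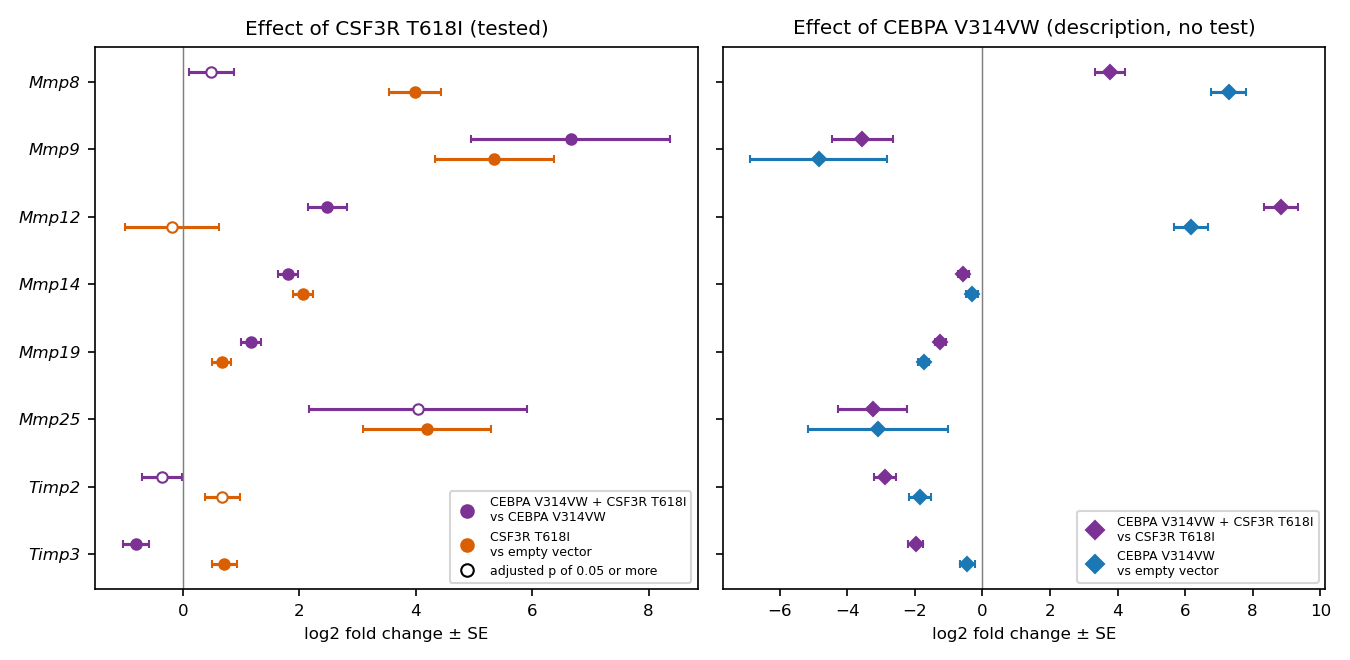
Log2 fold change with its standard error for the 8 tested genes. The left panel shows the tested effects of CSF3R T618I without and with CEBPA V314VW, open symbols being those with an adjusted p of 0.05 or more, and the right panel shows the effects of CEBPA V314VW with and without CSF3R T618I as a description. Mmp12 lies at 2.48 with mutant CEBPA and −0.18 without it, whereas Mmp14 lies at 1.80 and 2.07.

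Levels were summed per kb of exon to set enzymes beside inhibitors. The 3 TIMP genes summed to 0.659 ± 0.0819 CPM per kb with both mutants, 3.73 ± 1.02 with CSF3R T618I, 0.931 ± 0.265 with CEBPA V314VW and 2.16 ± 0.325 with empty vector (SD, n = 3 each). The ratio of the summed 6 metalloproteinases to the summed TIMPs was 627, 809 and 878 with both mutants, against 16.5, 8.58 and 16.4 with CSF3R T618I. It was 419, 461 and 290 with CEBPA V314VW, against 3.06, 3.70 and 2.81 with empty vector. The groups did not overlap. Mmp8 made up 97.0% of the metalloproteinase sum with both mutants, 62.4% with CSF3R T618I, 99.0% with CEBPA V314VW and 31.9% with empty vector, where Mmp19 was the most abundant per kb (3.69 CPM per kb, against 2.22 for Mmp8). With Mmp8 left out the ratio was 23.1 ± 4.42 with both mutants, 4.98 ± 0.989 with CSF3R T618I, 3.99 ± 1.7 with CEBPA V314VW and 2.16 ± 0.183 with empty vector. These sums hold the genes that chose the list and are a description of RNA.

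**Figure D3:**
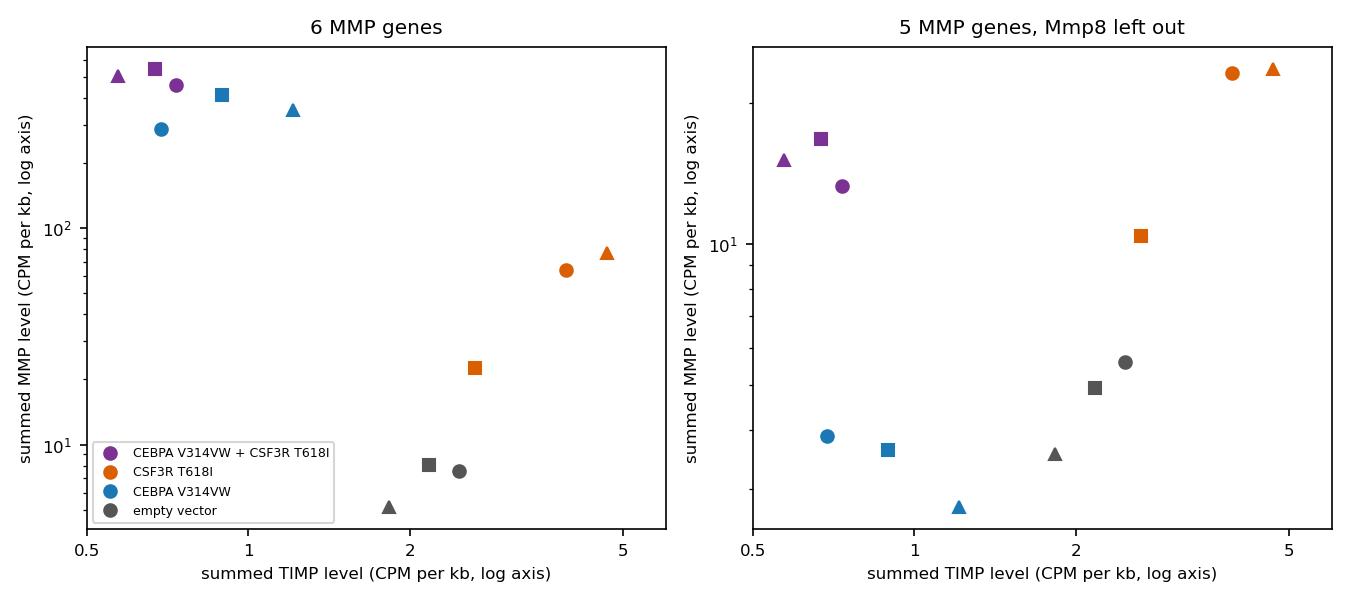
Summed level of the metalloproteinase genes against the summed level of the 3 TIMP genes in each library, in CPM per kb of exon on log axes, with all 6 enzymes on the left and without Mmp8 on the right. Circles, squares and triangles are libraries A, B and C. All libraries with mutant CEBPA lie to the left, at a mean TIMP sum of 0.659 with both mutants and 0.931 with CEBPA V314VW alone, and without Mmp8 the enzyme sums of CEBPA V314VW alone and of empty vector overlap.

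The neighbours of Mmp8 and Mmp12 were examined because both lie in 1 gene cluster. Within 500 kb of either gene lie 24 other annotated genes, 8 of them metalloproteinases, and 9 of the 24 were tested. Mmp13, a collagenase of cartilage and bone, had 45, 78 and 91 counts with both mutants, against 0, 0 and 2 counts with CSF3R T618I. The ratio was 121 with a counting interval of 33.2 to 1010, and the gene rose (edgeR adjusted p = 5.14e-05). It had 74, 61 and 58 counts with CEBPA V314VW, against 0 in all empty vector libraries, at least 63.6-fold higher against a floor of 3 counts over the group (adjusted p = 3.58e-05). Mmp13 was thus counted almost only in libraries with mutant CEBPA. It passed the expression filter through those groups, and was examined as a neighbour of genes chosen for the same rise. Its p-values are therefore not independent support.

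Mmp27, whose substrates are little known, starts shortly after the end of Mmp8. It had 3.75, 4.32 and 4.33 CPM with both mutants, against 0.785, 0.563 and 0.410 CPM with CSF3R T618I (2.81 ± 0.24, adjusted p = 4.87e-06). It had 5.95, 6.57 and 4.84 CPM with CEBPA V314VW, against 0.406, 0.415 and 0.592 CPM with empty vector (3.61 ± 0.249, adjusted p = 6.66e-07). Like Mmp13, it was examined as a neighbour of genes chosen for the same rise, so these p-values are not independent support. Relative to Mmp8, the Mmp27 counts were 0.338% to 0.366% with both mutants, 0.320% to 1.90% with CSF3R T618I, 0.573% to 0.865% with CEBPA V314VW and 5.51% to 15.4% with empty vector. Whether reads running past the end of Mmp8 contributed was not tested.

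Mmp10, which encodes stromelysin-2, had 5, 3 and 5 counts with CEBPA V314VW and 0 in each empty vector library, at least 4.28-fold higher against the same floor, and 2 counts with both mutants. Mmp1a, Mmp1b and Mmp3 had no count anywhere, and Mmp1b is the gene that overlaps Mmp12. Among other neighbours, Birc2 and Birc3, which encode inhibitors of apoptosis, were higher with CEBPA V314VW than with empty vector by 0.57 (adjusted p = 0.00111) and 0.59 (0.00298) on the log2 scale. Birc3 was also higher with CSF3R T618I than with empty vector (0.69, adjusted p = 0.000989). It rose further when CSF3R T618I was added to CEBPA V314VW (0.47, adjusted p = 0.0131). Yap1, a transcriptional coactivator, had 49 counts with CEBPA V314VW and 5 with empty vector (3.18, adjusted p = 0.00837). It had 8 counts with both mutants and 9 with CSF3R T618I (0.05, adjusted p = 0.974), and fell between both mutants and CEBPA V314VW (−2.48, adjusted p = 0.0235). Yap1 passed the expression filter through the CEBPA V314VW group alone, and was examined as a neighbour of genes chosen for the same rise. Its p-values are therefore not independent support. Dync2h1, Dcun1d5, Tmem123 and Cfap300 did not pass in any contrast.

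**Figure D4:**
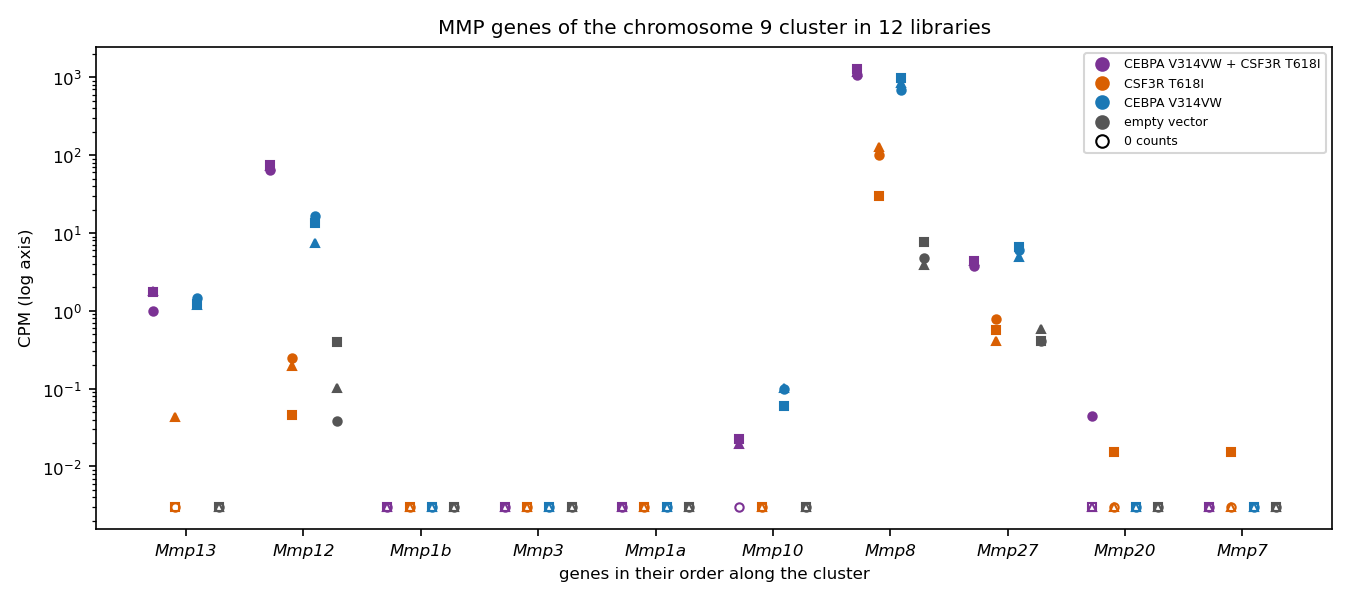
CPM on a log axis of the metalloproteinase genes of the chromosome 9 cluster in 12 libraries, in their order along the chromosome. Circles, squares and triangles are libraries A, B and C, and open symbols are libraries with 0 counts. Mmp12, Mmp8, Mmp13 and Mmp27 stand higher in the libraries with mutant CEBPA, and Mmp1a, Mmp1b and Mmp3 are at 0 in all 12.

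Of 17 further genes of the metalloproteinase family, 7 were abundant enough to be tested. None passed between CSF3R T618I and empty vector, and Mmp2 alone passed between both mutants and CEBPA V314VW. Mmp2 encodes gelatinase A, whose precursor is activated by Mmp14 with Timp2. It had 14.5, 15.4 and 14.6 CPM with both mutants, against 5.17, 4.96 and 5.23 CPM with CEBPA V314VW alone, and rose by 1.53 ± 0.305 log2 units (adjusted p = 0.0033). Between CEBPA V314VW and empty vector, and between both mutants and CSF3R T618I, Mmp13 and Mmp27 were the 2 that rose and none fell. Mmp13 was among the tested genes only through the groups with mutant CEBPA. Mmp13 and Mmp27 lie near Mmp8 and Mmp12, which were chosen for a rise with mutant CEBPA, so their calls are not independent support. Over all genes 9.5% rose and 7.68% fell between CEBPA V314VW and empty vector, and 8.43% rose and 10.1% fell between both mutants and CSF3R T618I.

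Reck, a membrane-anchored protein that inhibits several metalloproteinases, differed widely between groups. It had 39.5, 37.3 and 47.3 CPM with CSF3R T618I, against 4.75, 5.22 and 5.34 CPM with empty vector, a rise of 3.02 ± 0.13 log2 units (8.1-fold, adjusted p = 2.31e-08). It had 14.0, 14.3 and 14.7 CPM with both mutants, against 7.65, 9.79 and 9.01 CPM with CEBPA V314VW alone, a rise of 0.70 ± 0.122 (1.62-fold, adjusted p = 0.00124). The effect of CSF3R T618I with CEBPA V314VW, minus that without, was −2.32 ± 0.174 log2 units (4.99-fold, adjusted p = 9.04e-05), and all leave-outs kept that call. Tfpi2, the other tested inhibitor outside the TIMP family, fell to 0.0813 CPM with CEBPA V314VW, against 0.637 CPM with empty vector (adjusted p = 0.00179).

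Among 11 tested genes whose products bind or clear metalloproteinases, 4 rose and none fell between CSF3R T618I and empty vector (10.0% and 9.66% over all tested genes), and none rose and 6 fell between both mutants and CSF3R T618I (8.43% and 10.1%). Lcn2, the lipocalin that in humans forms a complex with MMP9, averaged 265 ± 90.6 CPM with CSF3R T618I and 20.6 ± 6.56 CPM with empty vector (3.69, adjusted p = 9.46e-07). With both mutants it averaged 89.6 ± 8.5 CPM, against 9.01 ± 0.716 CPM with CEBPA V314VW (3.31, adjusted p = 2.59e-06). Lrp1, the endocytic receptor that takes up metalloproteinases and TIMPs, averaged 7.12 ± 1.99 CPM with CSF3R T618I and 2.57 ± 0.671 CPM with empty vector (1.47, adjusted p = 0.000793). It fell to 1.51 ± 0.203 CPM with both mutants, against 7.12 ± 1.99 CPM with CSF3R T618I (−2.23, adjusted p = 4.95e-05).

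Of 11 tested genes of specific and gelatinase granules, 6 rose and 1 fell on addition of CSF3R T618I to either background, where 10.0% and 9.66% of all tested genes did so without mutant CEBPA and 7.79% and 10.1% with it. Between CEBPA V314VW and empty vector none rose and 8 fell (9.5% and 7.68% over all tested genes), and between both mutants and CSF3R T618I 1 rose and 8 fell (8.43% and 10.1%). The median log2 fold change of this list was −1.45 between CEBPA V314VW and empty vector, where the median of all tested genes was 0.00, and 2.41 between CSF3R T618I and empty vector, where it was 0.01. Ngp, neutrophilic granule protein, averaged 8.57 ± 3.99 CPM with CEBPA V314VW and 123 ± 104 CPM with empty vector (−3.84, adjusted p = 0.00243). Ltf, lactoferrin, averaged 0.115 ± 0.0615 CPM with CEBPA V314VW and 17.7 ± 21.9 CPM with empty vector (−7.24, adjusted p = 0.00677), the empty vector libraries holding 10.4, 42.3 and 0.469 CPM. Its call was lost with no filter on low counts (0.0633) and with limma voom (0.273). Chil3, a chitinase-like protein, was the 1 gene that rose between both mutants and CSF3R T618I, at 1690 ± 362 CPM against 250 ± 143 CPM (2.76, adjusted p = 0.00642, and 0.0567 with no filter on low counts).

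Matrix genes, whose products metalloproteinases cut, were transcribed in these cells too. Of 12 tested, 4 rose and none fell between CSF3R T618I and empty vector (10.0% and 9.66% over all tested genes), and 3 rose and none fell between both mutants and CEBPA V314VW (7.79% and 10.1%). Counts were 3 risen and 3 fallen both between CEBPA V314VW and empty vector (9.5% and 7.68%) and between both mutants and CSF3R T618I (8.43% and 10.1%). Col18a1, a basement membrane collagen, averaged 74.5 ± 4.86 CPM with CSF3R T618I and 7.37 ± 1.13 CPM with empty vector (3.34, adjusted p = 3.17e-07). Vcan, a large proteoglycan, had 10.9, 10.3 and 14.7 CPM with CSF3R T618I, against 1.16, 1.40 and 0.510 CPM with empty vector (3.55, adjusted p = 1.54e-06). It had 36.8, 34.4 and 34.8 CPM with both mutants, against 8.74, 11.2 and 7.88 CPM with CEBPA V314VW alone (1.93, adjusted p = 7.86e-05). The difference of these effects was −1.62 ± 0.352 (adjusted p = 0.0374) and lost its call without empty vector library A or any library with mutant CEBPA (0.0675 to 0.114), and with a replicate block (0.0928). Fn1, fibronectin, averaged 20.7 ± 2.01 CPM with both mutants and 2.05 ± 1.18 CPM with CSF3R T618I (3.35, adjusted p = 0.000512), and 10.6 ± 2.9 CPM with CEBPA V314VW and 1.67 ± 1.23 CPM with empty vector (2.67, adjusted p = 0.00235).

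Precursor activation and the plasminogen system had 10 tested genes, of which 2 rose and 3 fell between CSF3R T618I and empty vector (10.0% and 9.66% over all tested genes). Serpinb2, an inhibitor of plasminogen activators, averaged 18.8 ± 0.71 CPM with CEBPA V314VW and 4.59 ± 1.14 CPM with empty vector (2.03, adjusted p = 1.85e-05). It fell to 3.33 ± 0.738 CPM with both mutants, against 18.8 ± 0.71 CPM with CEBPA V314VW alone (−2.50, adjusted p = 4.52e-06). Hpn, a membrane serine protease, fell to 4.05 ± 0.152 CPM with CEBPA V314VW, against 10.3 ± 0.108 CPM with empty vector (−1.35, adjusted p = 1.53e-05). Furin, which removes the propeptide of Mmp14, did not pass in any contrast. Among 17 tested ADAM and ADAMTS genes, relatives that shed membrane proteins or cut proteoglycans, 2 rose and 3 fell between CSF3R T618I and empty vector, close to the 10.0% and 9.66% of all tested genes. Adam9 averaged 76.3 ± 31.0 CPM with CSF3R T618I and 34.6 ± 5.4 CPM with empty vector (1.14, adjusted p = 0.00486).

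Within groups, Mmp8, Mmp9 and Mmp25 varied together. With group means removed, log2(CPM + 0.5) over the 12 libraries correlated at r = 0.959 for Mmp8 and Mmp25, 0.869 for Mmp8 and Mmp9 and 0.858 for Mmp9 and Mmp25. The points share libraries, and library B was low in all 3 genes with CSF3R T618I and high in all 3 with empty vector. Mmp14 and Timp1 correlated at 0.915 in the same way, with Timp1 at a few counts per library. Mmp8 and Mmp12 correlated at 0.869 across all libraries and at 0.392 with group means removed.

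The genes whose pattern over the 12 libraries was most like each member were ranked by Pearson correlation of log2(CPM + 0.5) among 9225 genes (9226 for Mmp25, Timp2 and Timp3), as a description. For Mmp8 they were Tagap1 (r = 0.978), Ipcef1 (0.977) and Ifnar2 (0.975), and for Mmp12 P2ry14 (0.985), Tsc22d1 (0.983) and Armcx6 (0.983). For Mmp9 they were Aldh3b1 (0.973), Siglece (0.958) and Pilra (0.957), and for Mmp25 Pilra (0.915), Mmp9 (0.915) and Gpcpd1 (0.913). For Mmp14 they were Rhag (0.989), Hbb-bs (0.987) and Cldn13 (0.987), of which Rhag and Hbb-bs are genes of red cell precursors. For Mmp19 they were Rnf128 (0.992), Ptgs1 (0.983) and Il2ra (0.981). For Timp2 they were Rflnb (0.970), Padi4 (0.970) and Ckap4 (0.963), and for Timp3 Tmem9 (0.930) ranked highest. The lists of Mmp8 and Mmp12 shared no gene, and only Mmp25 had another of the 9 genes among its 3.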

How the data were processed

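RNA-seq was carried out on 12 libraries of transduced mouse marrow cells. The authors trimmed reads with Trimmomatic and aligned them with STAR, and the submitters' processing notes name mm10 and DESeq2. The deposited values are raw counts per gene, with no normalization. How reads were assigned to genes, with which annotation and with or without strand, is not given in the sources used here. cDNA was amplified by PCR, so counting intervals cover counting error only, and p-values measure the spread between libraries that the design calls biological replicates.

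Of 51918 lines, 6 that repeated a gene were dropped. Counts were fitted with edgeR 4.0.16 in R 4.3.3 (quasi-likelihood, robust, TMM, default expression filter by group) with CSF3R, CEBPA and interaction terms over 12 libraries, and 16360 genes were adjusted by Benjamini-Hochberg. A called gene also exceeded an absolute log2 fold change of 1. The members, gene lists and markers were chosen with earlier results of these data known. Named were the 9 members, up to 4 called genes per list, contrast and direction with at least 1 CPM in the highest group (of which the text gives examples), genes within 500 kb of Mmp8 or Mmp12 or overlapping a member, and the 3 genes most like each member at 10 CPM or more (for Timp3 only the highest is reported here). Furin, Csf1r, Adgre1, Mrc1, Ms4a7 and Fcgr1 fall outside that rule and were named after their values were seen. Exon lengths and coordinates are from GENCODE M21. On simulated counts for CSF3R T618I against empty vector over 15813 genes, the fit recovered 49.5% of genes changed 2-fold and 80.8% of genes changed 4-fold, with 6.57% false calls. The alternatives, 9 in kind, were DESeq2 size factors, total counts, DESeq2 1.42.0, limma 3.58.1 voom with sample weights, no filter, compared groups only, left-out libraries, a replicate block and a length correction. Levels under total counts were added after seeing the data.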

Additional observations from a re-analysis of the deposited data

Results flagged for a closer look

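Among the members and 68 tested list genes, the effect of CSF3R T618I differed with the CEBPA background in 3 genes, a difference between groups. These calls come from the interaction test of the edgeR model. Over all tested genes that difference was positive in 0.501% and negative in 1.27%. For Timp3 the effect with CEBPA V314VW minus the effect without it was −1.52 on the log2 scale (adjusted p = 0.0275), and the effect was negative with mutant CEBPA and positive without it. For Vcan the same difference was −1.62 (adjusted p = 0.0374), with a rise on both backgrounds. For Reck it was −2.32 (adjusted p = 9.04e-05), again with a rise on both. Leaving out single libraries took the adjusted p as high as 0.103 for Timp3 and 0.114 for Vcan, against 0.000767 for Reck. A replicate block gave 0.0848 for Timp3 and 0.0928 for Vcan. Groups hold 3 libraries each, so no formal test for a library far from its group was made. CSF3R T618I library C had the lowest limma voom sample weight, 0.126. Its deviations from the group mean correlated with exon length at 0.424, the highest of the 12 libraries. Without it, 6399 genes passed between CSF3R T618I and empty vector, against 3217 with all libraries. For the difference of effects 1745 passed, against 289.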

How the results depend on the processing

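Of 788 alternative values of the 8 tested genes, 720 stayed the same, 36 lost the call, 6 gained it, 12 moved and 14 changed sign. Where a test was given, the same means an unchanged direction and side of the threshold. For values given as a description, it means an unchanged direction and a small shift relative to the standard error, and moved means a larger shift. The cause was not tested except where given. Between CSF3R T618I and empty vector, Mmp12 (main value −0.18) turned to 1.10 without empty vector library B and to 0.36 without CSF3R T618I library B (range −0.70 to 1.10), and with limma voom Mmp25 was −0.04 and Timp2 −0.15. In the difference of effects Mmp9 turned to −0.47 without empty vector library B (range −0.47 to 1.90). Mmp25 took positive values of 0.34, 0.46, 0.67, 1.76, 0.11 and 0.09 in 6 leave-outs (range −2.82 to 1.76), 3.59 with limma voom and 0.19 with DESeq2. Between both mutants and CSF3R T618I, Mmp25 was 0.01 with limma voom. The voom fit also gained calls. In it Mmp12 fell between CSF3R T618I and empty vector (−2.43, adjusted p = 0.0364). Mmp25 rose between both mutants and CEBPA V314VW (3.55, adjusted p = 0.0287). The difference of effects passed for Mmp14 (−0.59, adjusted p = 0.0109) and Mmp19 (0.61, adjusted p = 0.00739). The voom sample weights ran from 0.126 to 5.8, highest for empty vector library B, so that fit rests mostly on few libraries.

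Counts of calls moved as follows. Between CSF3R T618I and empty vector, members numbered 6 and 3 with only the compared groups (3 to 7 over leave-outs), list genes 24 and 42 with limma voom, and all genes 3217, 1702 with only the compared groups and 9651 with limma voom (2308 to 6399 over leave-outs). Between both mutants and CEBPA V314VW, members numbered 5 (3 to 5 over leave-outs), list genes 21, 32 with only the compared groups and 42 with limma voom, and all genes 2926, 4696 and 6818 in that order. For the difference of effects, members numbered 1 (0 to 1 over leave-outs) and 3 with limma voom, list genes 2 (1 to 4), 19 with limma voom and 4 with DESeq2, and all genes 289 (153 to 1745), 4739 with limma voom and 626 with DESeq2. Between CEBPA V314VW and empty vector all genes numbered 2812 and 7010 with limma voom. Between both mutants and CSF3R T618I they numbered 3025, 2013 with only the compared groups and 9952 with limma voom (1934 to 6666 over leave-outs).

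Of 18 same-letter pairs, 2 correlated above 0.1 (−0.349 to 0.285) in their deviations from group means. With 3 libraries per group, this check cannot decide whether equal letters shared a mouse or culture. With the letter as a replicate block, members numbered 4 between CSF3R T618I and empty vector, 4 between both mutants and CEBPA V314VW and 0 for the difference of effects, and all genes 2735, 2493 and 177. Total counts in place of TMM moved the median of all genes between CSF3R T618I and empty vector by about −0.1, to −0.10, and moved none of 36 member levels by over 1 SD. Depth limits Mmp12 without mutant CEBPA, Mmp9 with CEBPA V314VW alone, Mmp25 and Timp1.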
